A study of Mus musculus with 6 samples.

Results

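EphB receptors and their ephrin-B ligands were read on arrays of 2 tissue layers, the epithelium (urothelium) and the mesenchyme around it, from the bladder neck and urethra. The embryos were wild-type mice of the FVB/N strain, taken on embryonic day 13, which is Theiler stage 21. The genes are the members of these families by name, a rule that uses no measured value, although the families were picked with earlier results of these data known: Ephb1, Ephb2, Ephb3, Ephb4, Ephb6, Efnb1, Efnb2 and Efnb3. Of these 8 genes, 7 had at least 1 probe set naming a single gene in the platform annotation, 12 probe sets in all out of 34945 for 18193 genes. Ephb2 was not analysed here. Each layer was hybridised to 3 Affymetrix whole-genome mouse arrays, numbered 1, 2 and 5 for urothelium and 1, 2 and 3 for mesenchyme. No treatment or mutation was applied. The embryos' sex is unknown and samples were not pooled, per the labels, and the layers were parted with a needle after trypsin. Whether the arrays of a layer stem from separate embryos is not stated in the labels, so p-values measure the spread between these samples, and that spread may be technical.

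EphB receptors are receptor tyrosine kinases that bind ephrin-B ligands on a neighbouring cell. Because the ligands span the membrane, signals run both ways: forward into the cell with the receptor and reverse into the cell with the ligand. The pair is known for keeping cell populations apart at tissue boundaries, for guiding axons and, through Ephb4 on veins and Efnb2 on arteries, for blood vessel development. In the genital and urinary region, ephrin-B2 and EphB signalling is known for a part in midline closure of the urethra and separation of the cloaca.

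Values are normalized signals, quantile-normalized across the 6 arrays with the offset of 16 taken off again. They are compared between arrays for 1 probe set and not between probe sets. Differences are log2, urothelium minus mesenchyme, from limma, with its standard error and a Benjamini-Hochberg adjusted p over 13717 genes, so a negative difference means a higher signal in mesenchyme. The filter on low signal kept all 7 measured members.

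The array labelled mesenchyme 1 stood apart, so the differences of the members and named partners are given with it and without it. The correlation of log2 signals over genes (not independent replicates) was 0.981 between mesenchyme 2 and 3, but 0.784 and 0.755 between these and mesenchyme 1. Summed over 8 epithelial markers such as Epcam and Cdh1, the normalized signal was 127600 to 150200 on urothelium, 10760 and 2397 on mesenchyme 2 and 3, and 53830 on mesenchyme 1. Epcam, Cdh1, Cldn4, Krt8, Krt18 and Krt19 were higher on mesenchyme 1 than on mesenchyme 2 and 3. Cldn6 and Grhl2 were not: on mesenchyme 1, 2 and 3 Cldn6 read 127, 247 and 132, and Grhl2 565, 675 and 230.5. Summed over 8 mesenchymal markers such as Pdgfra and Col1a2 it was 23090 to 41200 on urothelium and 147900 to 208900 on mesenchyme, where mesenchyme 1 was the highest. Not all 8 followed the sum: on mesenchyme 1 Twist1 read 467, within the urothelial 333 to 724, and Pdgfrb 1566, against 5984 and 9159 on mesenchyme 2 and 3. Summed over 7 markers of other organs, among them liver Alb and lung Sftpc, mesenchyme 1 reached 246700 while the rest lay between 316.5 and 1057. With these readings it is uncertain whether the array labelled mesenchyme 1 holds only the tissue its label names, and every value from 6 arrays carries that doubt. In bulk samples fewer cells of a type and less RNA per cell cannot be told apart.

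Of the 7 measured members, 1 passed the threshold of adjusted p 0.05 with all 6 arrays, Ephb1, higher in mesenchyme. Without mesenchyme 1 there were 2, Ephb1 and Efnb3, both higher in mesenchyme. None passed in the direction of urothelium in either fit. Of all genes tested, limma called 5.98% with 6 arrays (1.95% higher in urothelium and 4.03% in mesenchyme) and 14.7% without mesenchyme 1 (6.36% and 8.35%), and among 7 members counts of 1 and 2 are not set apart from this background. The layers did not overlap for 1 member with 6 arrays and for 2 without mesenchyme 1, as for 28.8% and 45.4% of all genes. The median difference of the members was 0.28, against 0.12 over all genes (0.23 over all genes with median centring), and 0.14 against 0.02 without mesenchyme 1. With signs dropped the median of the members was 0.35, against 0.49 over all genes, and 0.23 against 0.41 without mesenchyme 1.

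Among the receptors, Ephb1, which is best known from axon guidance, read 177, 703 and 330 on urothelium 1, 2 and 5. On mesenchyme 1, 2 and 3 it read 2397, 2348 and 1375. Every mesenchymal array lay above every urothelial one, and urothelium 2 was the highest of its group. The difference was -2.46 ± 0.535 SE (5.49-fold, limma adjusted p = 0.0418, 95% interval -3.71 to -1.20, n = 3 per layer), or -2.58 relative to the median of all genes. Without mesenchyme 1 it was -2.39 ± 0.570 (adjusted p = 0.0324). The size held more steadily than the call. Leaving out urothelium 1 (-2.00, adjusted p = 0.154), urothelium 5 (-2.46, 0.162), mesenchyme 2 (-2.32, 0.150) or mesenchyme 3 (-2.69, 0.0704) ended the call in limma, and so did testing without the filter on low signal (adjusted p = 0.0577) or without the variance trend (0.0523).

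**Figure D1:**
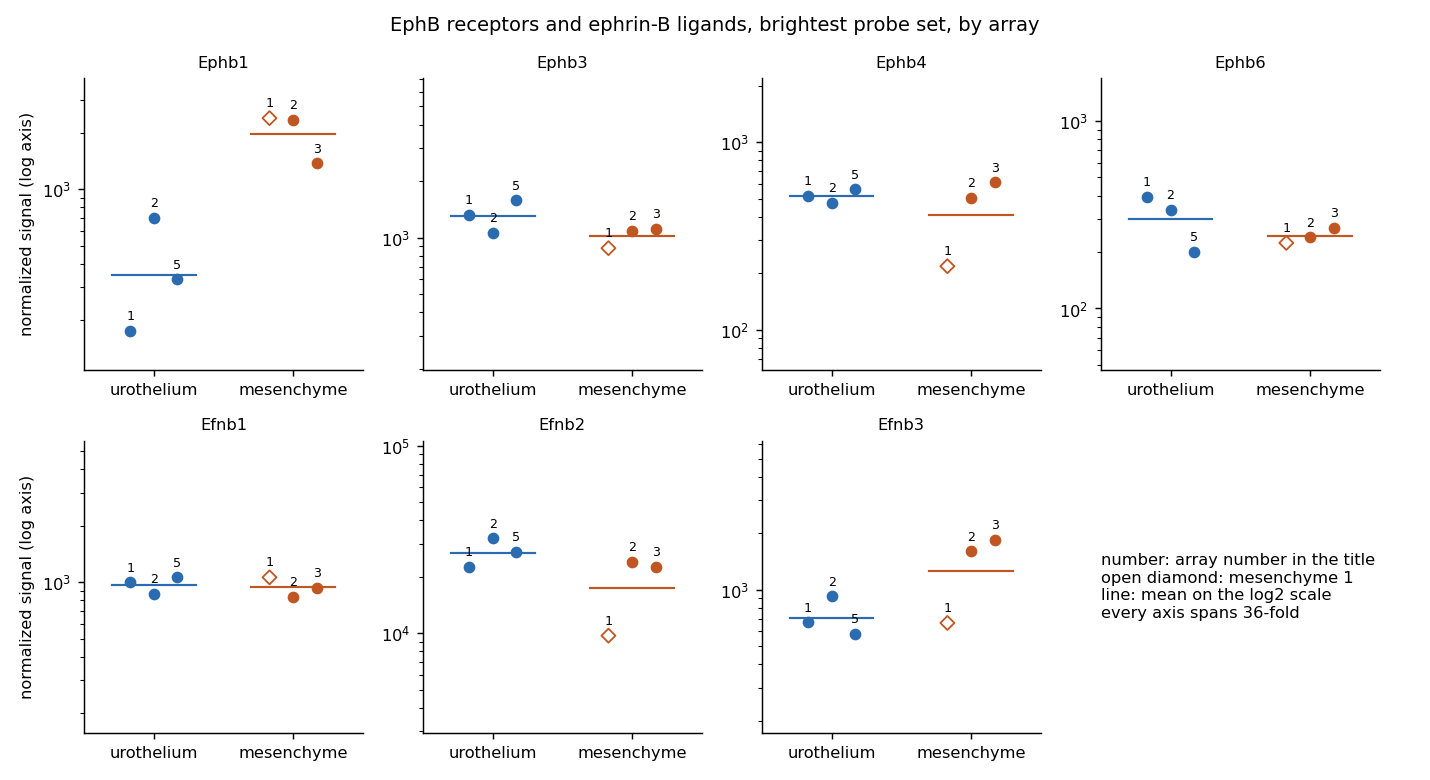
Normalized signal (log axis, spanning 36-fold in every panel) of the brightest probe set of each member on each array, urothelium in blue and mesenchyme in orange, with array numbers, the mean on the log2 scale as a line and mesenchyme 1 as an open diamond. Ephb1 is at 1375 or more on all mesenchymal arrays and at most 703 on urothelium, and mesenchyme 1 lies apart from mesenchyme 2 and 3 for Ephb4, Efnb2 and Efnb3.

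The promoters of Ephb1, the member that differed between the layers with and without mesenchyme 1, and of Efnb2, the ligand with the most probe sets, are shown as the 250 bases before the start, from RefSeq on GRCm38.p6, on the gene's own strand. Ephb1 lies at chr9:102354694-102354943 and Efnb2 at chr8:8661243-8661492, both on the minus strand. Capitals mark GGGCGG (the GC box), CAGGTG (an E-box) and TATAAA (the TATA box), each searched on both strands.
Ephb1: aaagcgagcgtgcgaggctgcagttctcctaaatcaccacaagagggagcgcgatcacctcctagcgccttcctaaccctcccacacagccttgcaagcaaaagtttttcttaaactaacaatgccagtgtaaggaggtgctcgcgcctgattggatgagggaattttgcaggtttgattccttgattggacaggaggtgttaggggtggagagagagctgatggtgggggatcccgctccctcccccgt
Efnb2: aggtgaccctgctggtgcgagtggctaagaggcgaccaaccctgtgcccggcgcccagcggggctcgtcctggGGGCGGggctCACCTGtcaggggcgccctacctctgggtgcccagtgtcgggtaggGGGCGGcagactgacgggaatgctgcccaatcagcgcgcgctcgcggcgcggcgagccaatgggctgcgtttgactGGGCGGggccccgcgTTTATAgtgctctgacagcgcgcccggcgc
The Ephb1 window held none of the 3 motifs and 10 CpG dinucleotides, with 54.0% G and C. The Efnb2 window held 3 GGGCGG, 1 CAGGTG and 1 TATAAA, with 27 CpG and 72.0% G and C. The CAGGTG and TATAAA matches lie on the opposite strand, read here as CACCTG and TTTATA, so no TATAAA stands in the gene's direction. Of 32851 mouse promoters in windows of the same length, 32.7% held GGGCGG, 17.2% CAGGTG and 12.4% TATAAA, and the median was 6 CpG. A match here is a match of letters and not a measured site. Promoter entries matched 7 of the 8 genes, all but Efnb3.

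Ephb3, a receptor known from the crypts of the gut, read 1318, 1062 and 1576 on urothelium 1, 2 and 5 and 878, 1083 and 1113 on mesenchyme 1, 2 and 3. The layers overlapped, and the difference was 0.35 ± 0.312 (adjusted p = 0.583, 95% interval -0.38 to 1.08), or 0.25 without mesenchyme 1. Ephb6, a receptor whose kinase is inactive, read 395, 335 and 200.0 on urothelium and 224, 239 and 269 on mesenchyme. Its urothelial arrays enclosed the mesenchymal ones, and its difference was 0.28 ± 0.409 (adjusted p = 0.740, 95% interval -0.68 to 1.24), or 0.23 ± 0.398 without mesenchyme 1. For both receptors these intervals reach past 1 log2 unit toward urothelium.

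Ephb4, the receptor of veins that binds Efnb2, read 514, 472 and 560 on urothelium 1, 2 and 5. It read 218, 503 and 609 on mesenchyme 1, 2 and 3. Mesenchyme 1 was the lowest of the 6 arrays and the other arrays of both layers overlapped. The difference was 0.32 ± 0.453 (adjusted p = 0.727) and turned to -0.11 ± 0.281 (adjusted p = 0.864, 95% interval -0.77 to 0.56) without mesenchyme 1. Summed over 8 endothelial markers such as Cdh5 and Tek, the normalized signal was 948 to 2512 on urothelium and 16430 to 21670 on mesenchyme, mesenchyme 1 being the highest. Not all of these markers followed the sum. Pecam1, Tie1 and Emcn were lower on mesenchyme 1 than on mesenchyme 2 and 3, while Cdh5, Tek, Esam and Cldn5 were highest there. The Ephb4 signal showed no step between the layers like that of the sum, and the part of endothelial cells in it was not tested. Its only probe set is of a kind that can match several transcripts of the gene.

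Among the ligands, Efnb2, the ephrin of arteries, read 22549, 32007 and 27006 on urothelium 1, 2 and 5. It read 9695, 23956 and 22661 on mesenchyme 1, 2 and 3. Mesenchyme 1 was the lowest array, and mesenchyme 2 and 3 lay within the urothelial range. The difference was 0.63 ± 0.358 (adjusted p = 0.390, 95% interval -0.21 to 1.47) and 0.20 ± 0.174 (adjusted p = 0.534, 95% interval -0.21 to 0.62) without mesenchyme 1. The latter interval is the narrowest among the 7 members, and a difference between the layers beyond 0.62 on the log2 scale lies outside it. This bound holds only for the brightest probe set without mesenchyme 1. The second probe set of Efnb2 gave a larger and less certain 0.33 ± 0.183 there, so 0.62 is not a limit for the gene.

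Efnb1, the X-linked ligand whose human counterpart is altered in craniofrontonasal syndrome, read 996, 867 and 1061 on urothelium and 1062, 837 and 930 on mesenchyme 1, 2 and 3. The layers overlapped throughout, with a difference of 0.05 ± 0.298 (adjusted p = 0.940, 95% interval -0.65 to 0.75), or 0.14 without mesenchyme 1, and the sign turned with other settings.

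Efnb3, a ligand known from the midline of the spinal cord, where it keeps axons from crossing back, read 669, 920 and 578 on urothelium 1, 2 and 5. On mesenchyme 2 and 3 it read 1598 and 1841, above all urothelial arrays, and on mesenchyme 1 it read 663, within the urothelial range. With 6 arrays the difference was -0.81 ± 0.462 (adjusted p = 0.393, 95% interval -1.89 to 0.28). Without mesenchyme 1 it was -1.29 ± 0.300 (2.45-fold, limma adjusted p = 0.0289, n = 3 urothelial and 2 mesenchymal arrays). The call of Efnb3 thus rests on whether mesenchyme 1 is counted. Array weights, estimated without full convergence, gave -1.37 (limma adjusted p = 0.00127) with all 6. That setting called 5109 of 13717 genes, against 820 with the arrays weighted equally, and its value lies near that without mesenchyme 1.

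**Figure D2:**
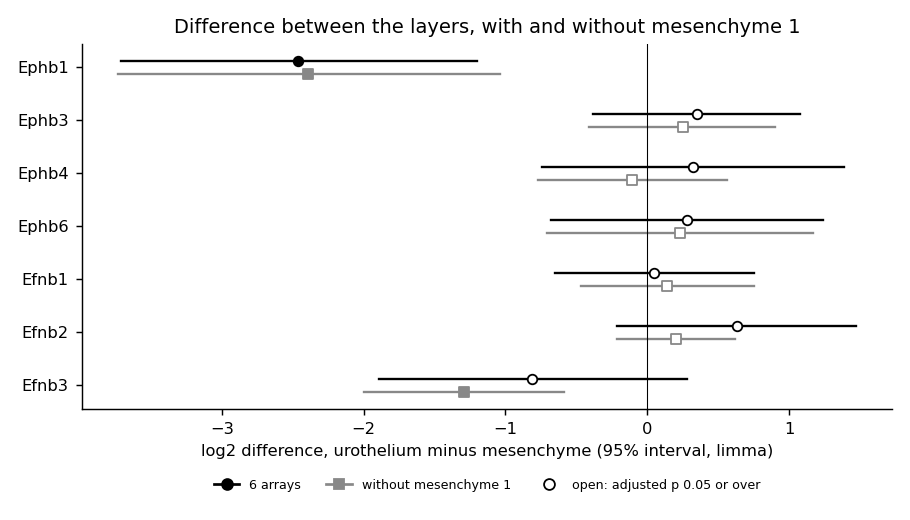
Log2 difference between the layers (urothelium minus mesenchyme, horizontal axis) for each member with its 95% interval from limma, with 6 arrays in black and without mesenchyme 1 in grey, filled where adjusted p is under 0.05. Ephb1 is at -2.46 and -2.39, Efnb3 moves from -0.81 to -1.29, and the intervals of the other 5 members include 0 in both.

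Mesenchyme 1 departed from the mean of mesenchyme 2 and 3 by -1.29 for Ephb4, -1.26 for Efnb2 and -1.35 for Efnb3 on the log2 scale. It departed by 0.41 for Ephb1, -0.32 for Ephb3, -0.17 for Ephb6 and 0.26 for Efnb1. The median size of this departure over all tested genes was 0.75, against 0.19 for the gap between mesenchyme 2 and 3. So 3 of the 7 members moved more than the typical gene on this array and 4 moved less. Between mesenchyme 2 and 3 the members differed by at most 1.70-fold, for Ephb1, while for Efnb2 the gap was 1.06-fold.

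Efnb1 and Efnb2 had 3 and 4 probe sets, and the other 5 measured members had 1 each. The second probe set of Efnb2 gave 10394, 12888 and 11409 on urothelium and 2581, 8995 and 9295 on mesenchyme 1, 2 and 3. Here the layers did not overlap, yet the difference of 0.94 ± 0.487 did not pass in limma (adjusted p = 0.404, and 0.33 with adjusted p = 0.370 without mesenchyme 1). The remaining pair of Efnb2 probe sets lay below the filter and pointed in opposite directions (1.12 and -0.69). For Efnb1 the second probe set gave -0.17 ± 0.371 and the third, below the filter, -0.30 ± 0.588. No probe set of either gene passed in limma.

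**Figure D3:**
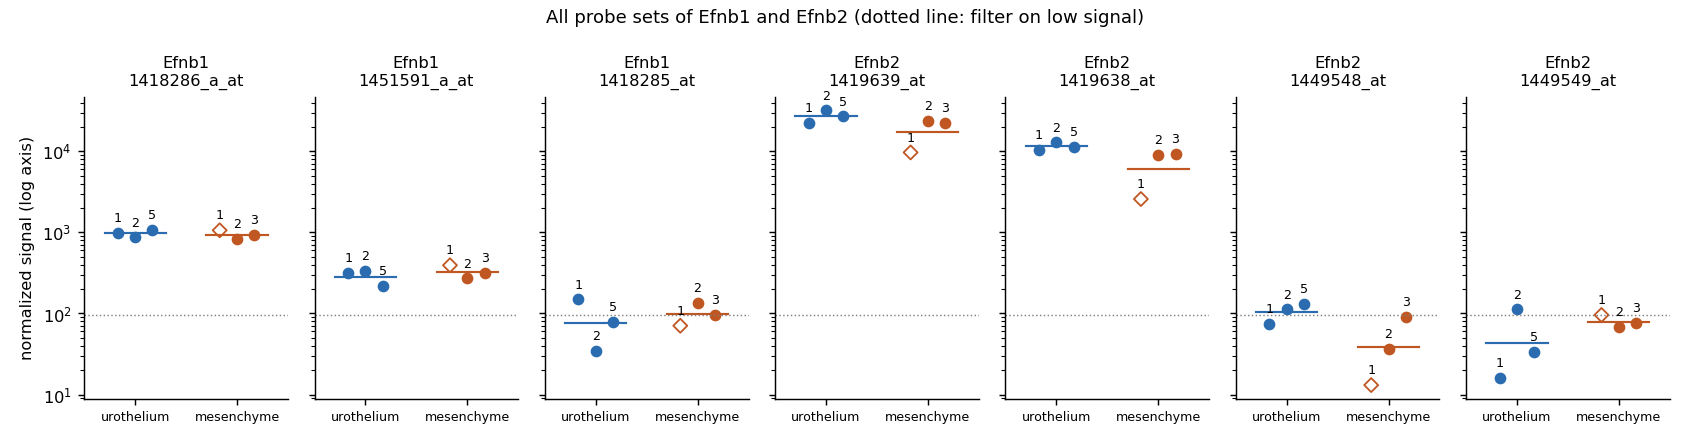
Normalized signal (log axis) of the 3 probe sets of Efnb1 and the 4 of Efnb2 on each array, with urothelium in blue, mesenchyme in orange, mesenchyme 1 as an open diamond, the mean on the log2 scale as a line and the filter on low signal dotted. Both bright Efnb2 probe sets are lowest on mesenchyme 1 (9695 and 2581), and the dim ones scatter around the filter of 96.3.

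Ephb1 was the only member whose signal ranged over at least 2 log2 units across the arrays (3.65). The 3 genes with the most similar profile over the 6 arrays, by root mean square distance between centred log2 values, were Synpr (0.13), which encodes the synaptic vesicle protein synaptoporin, Rbm24 (0.26), an RNA-binding protein of muscle, and Mylk (0.27), the myosin light chain kinase of smooth muscle. Synpr read 119, 444 and 193 on urothelium 1, 2 and 5 and 1412, 1490 and 1057 on mesenchyme 1, 2 and 3. In all, 65 genes lay within 0.5 log2 units of Ephb1, so these 3 are not set apart from many others. Markers of several cell types were higher in mesenchyme along with Ephb1. Summed over 6 neuronal markers such as Stmn2 and Snap25, the normalized signal was 547 to 1201 on urothelium and 25490 to 35180 on mesenchyme. Over 6 smooth muscle markers such as Acta2 and Myh11 it was 4864 to 10770 on urothelium and 23220 to 52940 on mesenchyme. Not every list went this way. The sum of 2 glial markers, nearly all of it from Erbb3, was 17070 to 24520 on urothelium and 6614 to 11920 on mesenchyme. Over 5 markers of blood and immune cells the layers overlapped (13530 to 55200 on urothelium, 38430 to 66600 on mesenchyme). Within urothelium, Ephb1 and the sums of neuronal, endothelial and mesenchymal markers were highest on array 2. The smooth muscle sum was highest on array 5 (10770, against 5049 on array 2). The single neuronal and mesenchymal markers were divided. Stmn2 and Prph were highest on array 1 and Snap25 and Tubb3 on array 5, against Elavl3 and Elavl4 on array 2. Col1a1, Col1a2, Pdgfrb and Dcn were highest on array 5, against Col3a1, Pdgfra, Lum and Twist1 on array 2. The part of these cell types in the Ephb1 difference was not tested.

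Of 39 genes known to act with EphB receptors and ephrin-B ligands, 37 were tested. With 6 arrays 3 were higher in urothelium and 3 in mesenchyme (16.2% against 5.98% of all genes), and without mesenchyme 1 there were 6 and 5 (29.7% against 14.7%). These shares are not read as a result about the list, which was chosen with earlier results of these data known. Arhgef15 and Cnksr1, called in both fits, also passed the filter on low signal only through the layer where they were higher. The median difference of the list was 0.17 and 0.05, close to that of all genes. With signs dropped the median was 0.67, against 0.49 over all genes, and 0.58 against 0.41 without mesenchyme 1. This too is not read as a result about the list.

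On the receptor side, 21 signalling genes were tested, with 1 higher in urothelium and 2 in mesenchyme with 6 arrays, and 3 and 3 without mesenchyme 1. That is 14.3% and 28.6% called, against 5.98% and 14.7% of all genes, and is not read as a result about this group. Arhgef15 (ephexin-5), which EphB2 holds in check and endothelium expresses, read 25.1, 41.3 and 57.9 on urothelium and 945, 1121 and 1073 on mesenchyme 1, 2 and 3 (-4.25 ± 0.408, adjusted p = 0.00394; -4.38 without mesenchyme 1). The urothelial readings lay below the filter, where no detection call gives a bound. The endothelial sums given with Ephb4 moved in the same direction, and their part was not tested. Grb7, an adaptor that binds EphB1, was higher in urothelium (895, 902 and 981 against 198, 147 and 74.8, 2.68 ± 0.426, adjusted p = 0.0150, and 3.01 without mesenchyme 1). Sdc2, the syndecan phosphorylated by EphB2 in dendritic spines, was higher in mesenchyme (-1.29 ± 0.273, adjusted p = 0.0378, and -1.29 without mesenchyme 1). Vav2, an exchange factor for Rac (1.63, adjusted p = 0.0116), passed toward urothelium and the kinase Fyn (-1.48, adjusted p = 0.00758) toward mesenchyme in limma without mesenchyme 1 only, their differences with 6 arrays being 1.21 (adjusted p = 0.166) and -1.16 (adjusted p = 0.104). Afdn, the junction protein afadin, which binds Eph receptors, also passed toward urothelium without mesenchyme 1 (1.17, adjusted p = 0.00489), against 0.93 (adjusted p = 0.0913) with 6 arrays.

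On the ligand side, 9 genes were tested, with 2 higher in urothelium and 0 in mesenchyme with 6 arrays (3 and 0 without mesenchyme 1, by limma). Of all genes, 1.95% were called toward urothelium and 4.03% toward mesenchyme with 6 arrays, and 6.36% and 8.35% without mesenchyme 1. With so few genes, picked with earlier results known, these counts are not read as a result about ligand-side signalling. Ptpn13, a phosphatase that binds the ephrin-B tail through a PDZ domain, read 11624, 9272 and 10246 on urothelium and 1904, 2726 and 3102 on mesenchyme (2.03 ± 0.276, adjusted p = 0.00955, and 1.84 without mesenchyme 1). Cnksr1, a scaffold that links ephrin-B1 to the JNK pathway, was also higher in urothelium (400.1, 279 and 386 against 13.3, 63.2 and 28.3), with adjusted p = 0.0229 (0.00873 without mesenchyme 1). Its mesenchymal readings lay below the filter, so the fitted differences of 2.97 ± 0.537 and 2.64 have no bound from a detection call. Pard6b, a polarity protein of epithelial junctions, read 2202, 5658 and 1056 on urothelium 1, 2 and 5. It read 1284, 288 and 196 on mesenchyme 1, 2 and 3, so urothelium 5 lay below mesenchyme 1. Its difference was 2.44 (limma adjusted p = 0.162) with 6 arrays, and it passed without mesenchyme 1 (3.32, adjusted p = 0.0152). Epithelial markers moved the same way, from 127600 to 150200 on urothelium to 2397 to 53830 on mesenchyme, and their part was not tested.

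Of 5 genes of cleavage and dephosphorylation, 1 passed in either fit, against 5.98% of all genes with 6 arrays and 14.7% without mesenchyme 1. Ptpro, a receptor phosphatase that acts on Eph receptors, read 369, 242 and 198 on urothelium and 5211, 2623 and 1591 on mesenchyme 1, 2 and 3 (-3.34 ± 0.50, adjusted p = 0.0122, and -2.98 without mesenchyme 1). Adam10, the protease that cleaves ephrins, did not pass (-0.25 ± 0.306, adjusted p = 0.688, and -0.31 without mesenchyme 1). Epha4, the EphA receptor that also binds ephrin-B ligands, read 1848, 3252 and 1414 on urothelium and 1367, 9192 and 14211 on mesenchyme 1, 2 and 3. Its difference was -1.46 ± 0.844 (adjusted p = 0.396) and became -2.49 ± 0.398 (adjusted p = 0.00644) without mesenchyme 1. As with Efnb3, mesenchyme 1 did not share the higher signal of mesenchyme 2 and 3.

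**Figure D4:**
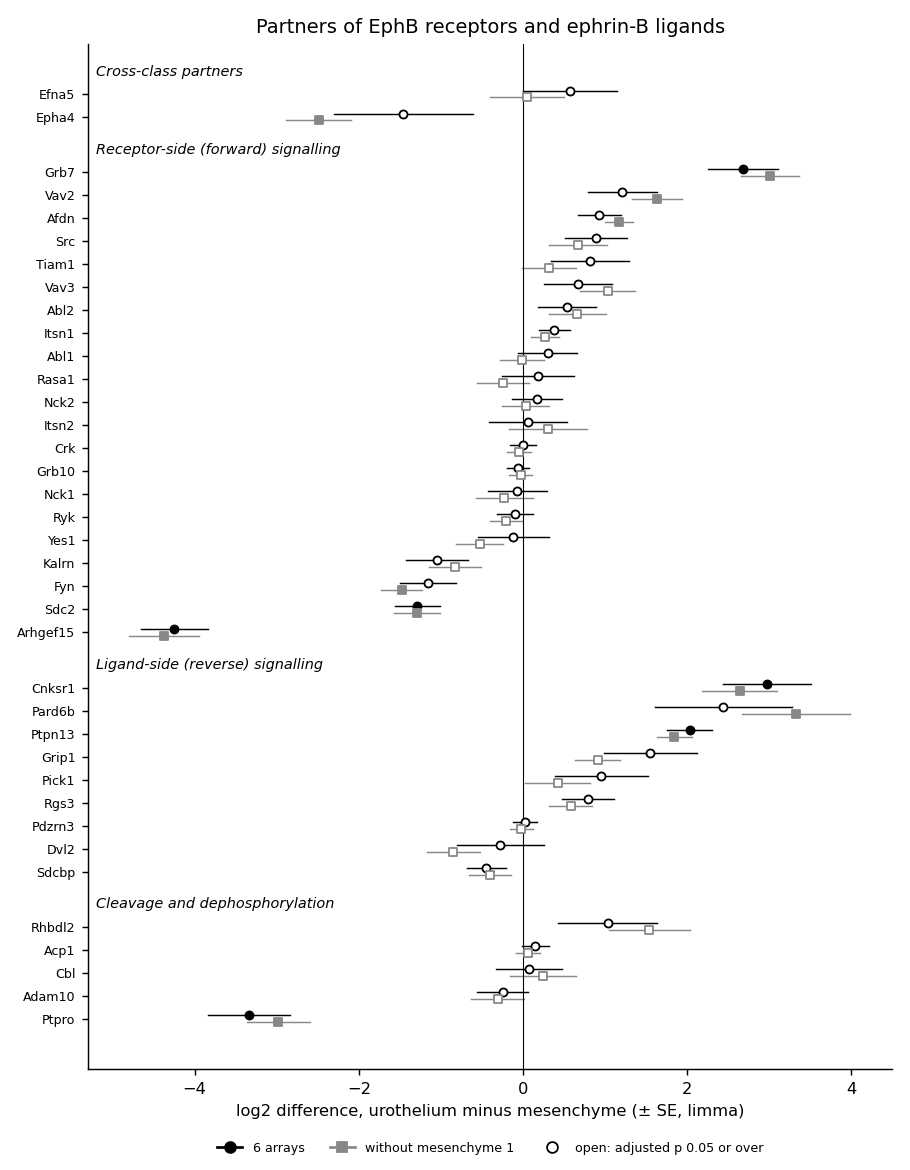
Log2 difference between the layers (urothelium minus mesenchyme, horizontal axis) with its standard error from limma for the 37 partner genes, grouped by role, with 6 arrays in black and without mesenchyme 1 in grey, filled where adjusted p is under 0.05. Arhgef15 (-4.25) and Ptpro (-3.34) lie to the mesenchymal side, and Ptpn13 (2.03) and Grb7 (2.68) to the urothelial side. Readings below the filter enter Arhgef15 (urothelium), Cnksr1 (mesenchyme) and Grb7 (mesenchyme 3).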

How the data were processed

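The deposited table holds 1 intensity (probe set signal, linear) per probe set and array. Per the submitters' processing notes it came from GCOS (Affymetrix); the settings used are not given in the sources here. On every array the mean of the deposited signal without the top and bottom 2% of probe sets was 1500, and medians ran from 125.9 to 254.2. The table used here has no detection calls. Of 45101 probe sets, 64 controls were left out. Signals plus 16 were put on a log2 scale and quantile normalized, genes took their brightest probe set by mean over the 6 arrays, and probe sets up to the 40th percentile of mean signal (96.3) were left out, leaving 13717 of 18193 genes. The offset understates changes of dim genes. The test was limma 3.58.1 (R 4.3.3; eBayes with an intensity trend and no covariate) with Benjamini-Hochberg adjustment over the tested genes, on all 6 arrays and without mesenchyme 1 after renormalization of the same probe sets. The number of arrays limits the precision. The code was tested on simulated data. Members and lists were chosen with earlier results of these data known. Named partner genes are those past the threshold in either fit, at most 4 per role by largest difference, with Sdc2, Afdn and Adam10 added after their values were seen. The 34945 probe sets with 1 gene were named by the platform annotation (34741 matched to RefSeq), 932 name several genes and 9160 are unnamed here.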

Additional observations from a re-analysis of the deposited data

How the results depend on the processing

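Ephb1 kept its direction under every alternative run, from -2.82 to -2.29 with other settings and from -2.88 to -2.00 with 1 array left out. It missed the threshold of limma without the filter (-2.46, adjusted p = 0.0577), without the variance trend (-2.46, adjusted p = 0.0523) and, chosen after seeing the data, with every probe set fitted (-2.46, adjusted p = 0.0528). With the replicate block, the number in the titles as a block, it was at -2.68 (adjusted p = 0.235). That fit called 0 of 13717 genes in limma (1460 at an unadjusted p under 0.05) and 0 members (1 unadjusted). Only numbers 1 and 2 are shared between the layers, and the deviations of same-numbered arrays correlated at -0.05 and -0.02. These correlations cannot decide on pairing, because mesenchyme 1, which stood apart, enters the mesenchymal deviations of both numbers. Pairing was left out of the main test because the titles do not state it. Members called numbered 0 without the filter and 0 without the trend (1 unadjusted in each), 2 with array weights (whose estimate did not fully converge), and 0 to 2 with 1 array left out. All genes called numbered 820, or 5109 with array weights, and 143 to 2019 with 1 array left out (1975 without mesenchyme 1 and without normalization, where 2 members passed). Efnb3 passed with array weights (-1.37), without mesenchyme 1 (-1.29, with -0.53 at the other end of the arrays left out) and, added later, without it and unnormalized (-1.41). The difference of Efnb3 was smallest with the replicate block (-0.39, limma adjusted p = 0.902). Ephb4 turned to -0.17 with array weights, -0.11 without mesenchyme 1 and -0.28 there without normalization, and lay at up to 0.59 with another array left out. Efnb1 turned to -0.14 without normalization, -0.14 with the mean of its probe sets, -0.02 with the replicate block and -0.02 unnormalized without mesenchyme 1, and ran from -0.03 to 0.14 with 1 array left out. Efnb2, Ephb3 and Ephb6 kept their direction and stayed short of the threshold throughout. Restricting to unique probe sets gave no value for Efnb1 and Ephb4, and a filter at the 60th percentile none for Ephb6. The causes were not tested.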
